A study of Homo sapiens with 9 samples.

Results

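The Sm core is the ring of proteins that grips the small nuclear RNAs of the spliceosome. Its 7 genes, SNRPB, SNRPD1, SNRPD2, SNRPD3, SNRPE, SNRPF and SNRPG, were chosen by gene symbol from the 48162 genes of the deposited tables. All 7 were among the 15776 genes with enough counts to be tested. Messenger RNA was measured by RNA sequencing in SKMEL28, a human melanoma cell line, with 3 libraries in each of 3 groups. In shCont, cells carried a lentiviral short hairpin RNA (shRNA) against GFP, which these cells do not make. In shp16, the hairpin was directed against the CDKN2A messenger, which encodes p16, an inhibitor of the cell cycle kinases CDK4 and CDK6. In shp16/shATR, cells carried the p16 hairpin and a second one against ATR, the kinase that responds to stalled DNA replication. All 3 groups were selected with puromycin. The labels do not say which of the study's ATR hairpins was used, so each knockdown stands as a single hairpin in a single cell line. Nothing states that the 3 libraries of a group came from separate cultures, and the study describes an mRNA panel as technical replicates of 1 experiment, so p-values measure only the spread between these libraries.

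The Sm proteins are small, share a common fold and assemble in the cytoplasm as the partial units SmB/SmD3, SmD1/SmD2 and SmE/SmF/SmG. The SMN complex, with its Gemin partners, closes these units into a ring around a short uridine-rich site of the U1, U2, U4 and U5 RNAs, after the methylosome (PRMT5, WDR77 and pICln, the product of CLNS1A) has methylated the tails of SmB, SmD1 and SmD3. The finished particle is imported into the nucleus, where it takes part in splicing. Every ring needs each of these proteins, and all dividing cells express their genes. SNRPB encodes both SmB and SmB′, which differ by alternative splicing, and SNRPN encodes a close relative, SmN, known mainly from the brain. SmB/B′ is also known to limit its own messenger by promoting inclusion of an exon that brings in a premature stop codon.

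That exon is shown because SNRPB was the member that differed between groups. In GENCODE release 29 (build GRCh38) SNRPB has 3 transcripts, of which SNRPB-203 is annotated as subject to nonsense-mediated decay. Its exon 3 of 8 (chr20:2467192-2467315, minus strand, 124 bases) is in neither of the 2 coding transcripts. The 58 bases from the exon's start to the stop codon it introduces (chr20:2467258-2467315) are printed 5′ to 3′ with that stop codon in capitals.
SNRPB-203 exon 3: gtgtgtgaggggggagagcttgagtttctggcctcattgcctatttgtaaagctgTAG
Each deposited count sums over a gene's transcripts, so the use of this exon was not measured.

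The 100 bases upstream of the annotated gene start are shown for the members with a matching window in the RefSeq promoter table (GRCh38.p14), so that SNRPB can be set beside 3 members of other levels. The windows are SNRPB chr20:2470790-2470889 (minus strand), SNRPD2 chr19:45692317-45692416 (minus), SNRPD3 chr22:24555550-24555649 (plus) and SNRPF chr12:95858852-95858951 (plus). Capitals mark CCGGAAG, the core bound by ETS factors, and CCAAT, on either strand.
SNRPB: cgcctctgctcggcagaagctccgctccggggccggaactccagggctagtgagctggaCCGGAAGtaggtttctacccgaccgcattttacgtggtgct
SNRPD2: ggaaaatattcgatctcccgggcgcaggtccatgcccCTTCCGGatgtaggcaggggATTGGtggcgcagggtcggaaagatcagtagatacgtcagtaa
SNRPD3: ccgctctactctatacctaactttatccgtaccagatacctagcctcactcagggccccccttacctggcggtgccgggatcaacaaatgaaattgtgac
SNRPF: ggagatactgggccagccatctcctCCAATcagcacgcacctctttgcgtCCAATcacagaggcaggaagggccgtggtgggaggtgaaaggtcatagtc
CCGGAAG was in 2 of these 4 windows, those of SNRPB and SNRPD2, and in 5.61% of all 35116 windows of the same length. CCAAT was in 2 of the 4, SNRPD2 and SNRPF, against 18.1% of all windows. GGGCGG (31.3% of all windows), CACGTG (3.43%) and TATAAA (4.99%), also searched on both strands, were in none of the 4. These matches describe letters in the windows, and binding was not measured.

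The libraries held 17314662 to 23588174 counts, and the 6 melanocyte genes MITF, SOX10, PMEL, MLANA, TYR and DCT were each at 92.6 FPKM (fragments scaled by gene length and by library total) or more in every library. CDKN2A was at 103 to 162 CPM (counts scaled to a common library total) in shCont and at 78.1 to 99.9 CPM in shp16, a log2 fold change of −0.48 that missed the threshold (edgeR adjusted p = 0.0723) and was −0.26 without shCont replicate 1 (0.0681). ATR was at 83.4 to 93.5 CPM in shp16 and at 39.9 to 41.0 CPM in shp16/shATR, a log2 fold change of −1.12 (edgeR adjusted p = 0.0128). That call passed in 15 of 19 alternative fits, with log2 fold changes of −1.15 to −0.97 and adjusted p (edgeR, DESeq2 or limma) up to 0.0707. The library shCont replicate 1 stood apart from replicates 2 and 3. ATR was at 45.9 CPM in it, against 93.5 and 96.4 CPM in the others, and its FPKM summed over all genes to 417450, against 365300 to 379050 in the other 8 libraries. All 7 Sm genes were higher in it, by 1.41-fold for SNRPG to 1.69-fold for SNRPD2 over the mean CPM of replicates 2 and 3, with a median of 1.47-fold, where the median over all genes tested was 0.996-fold. The counts and medians over the members, and several other values that use shCont, are therefore also given without this library.

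In levels scaled by the deposited gene length, SNRPD2 stood first, with a mean of 207 FPKM over the 9 libraries and a range of 180 to 293. SNRPB followed at 110 FPKM (75.2 to 165), SNRPD3 at 76.4 (63.8 to 99.6), SNRPG at 60.8 (54.0 to 76.95), SNRPE at 48.3 (39.1 to 62.9), SNRPF at 28.5 (23.3 to 34.3) and SNRPD1 at 23.3 (20.02 to 30.2). The range of SNRPD2 did not overlap with that of SNRPB, and the range of SNRPE did not overlap with that of SNRPF. The ranges of the other neighbours overlapped. Within every single library, however, SNRPD3, SNRPG, SNRPE, SNRPF and SNRPD1 kept this order. SNRPB was below SNRPD3 only in shp16/shATR libraries b and c. The proteins of SNRPD2 and SNRPD1, the highest and the lowest, enter the ring in equal number, and the FPKM ratio of these mRNAs was 8.94 ± 1.15 in shCont (SD, n = 3), with 8.37 ± 0.908 for shp16 and 9.34 ± 0.431 for shp16/shATR. The ratio depends on the deposited lengths, 901 bases for SNRPD2 and 1768 for SNRPD1. Without length scaling, the shCont means were 200 and 43.7 CPM. Whether these lengths match the transcripts expressed was not tested.

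**Figure D1:**
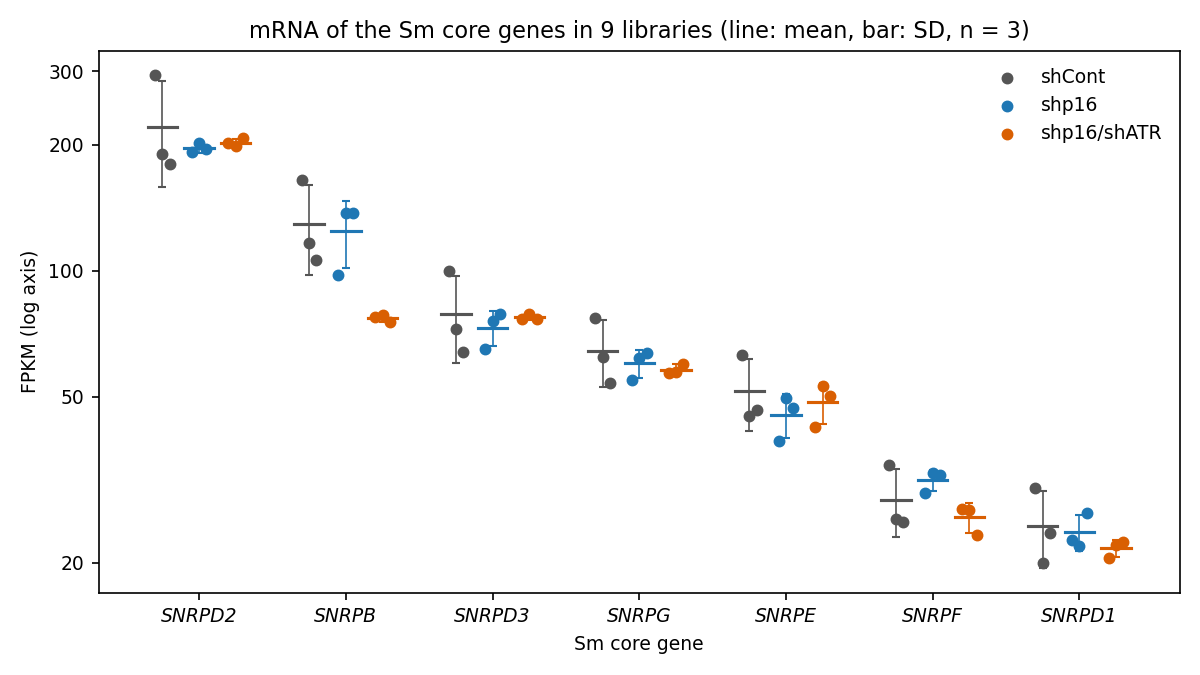
FPKM (log axis) of each Sm core gene, ordered by mean level; points are the 9 libraries, lines the group means and bars the SD (n = 3). SNRPB in shp16/shATR sits at 75.2 to 78.2 FPKM, below every library of the other groups, and the highest grey point of each gene is shCont replicate 1.

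SNRPB encodes SmB/B′, which pairs with SmD3. The gene (ENSG00000125835) lies at chr20:2442280-2451499 on the minus strand in the deposited coordinates, which are those of GRCh37. Its normalised level was 249, 163 and 153 CPM in shCont replicates 1 to 3, and 151, 194 and 194 CPM in shp16 replicates 1 to 3. In shp16/shATR libraries a, b and c it was 112, 112 and 111 CPM. All 3 shp16/shATR libraries were below all 6 others, while the shCont and shp16 libraries overlapped.

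SNRPB was thus lower in shp16/shATR, with a log2 fold change of −0.69 against shp16 (SE 0.175, edgeR quasi-likelihood test, adjusted p = 0.0391). The log2 fold change was −0.75 against shCont (SE 0.175, edgeR adjusted p = 0.00896), a contrast in which both the p16 and the ATR hairpin differ. These correspond to 0.621 and 0.593 of the level in shp16 and shCont. The sample titles do not say whether shp16 cells carried a second, control hairpin. An effect of a second hairpin as such therefore cannot be told apart from ATR knockdown. Against shCont, shp16 gave a log2 fold change of −0.07 (SE 0.173, edgeR adjusted p = 0.837). In FPKM the mean of shCont was 129 ± 31.3, that of shp16 124 ± 22.9 and that of shp16/shATR 76.9 ± 1.56 (SD, n = 3). An exact permutation test, two-sided, returned p = 0.1 for each shp16/shATR comparison, the smallest it can give for 3 libraries against 3.

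The fall against shp16 was close to the threshold and the call depended on the fit. SNRPB was lower in each of 19 alternative fits, with log2 fold changes of −0.80 to −0.63, but the adjusted p (edgeR, DESeq2 or limma) was between 4.95e-05 and 0.145 and passed in 10 of them. Leaving out shp16 replicate 2 or 3, or any of the 3 shp16/shATR libraries, ended the call, with edgeR adjusted p of 0.135, 0.133, 0.142, 0.145 and 0.13. Without shCont replicate 1 it was −0.69 with an edgeR adjusted p of 0.00029. The fall against shCont passed in 19 of 19, with log2 fold changes of −0.88 to −0.51, the smallest being that without shCont replicate 1 (edgeR adjusted p = 0.00214).

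**Figure D2:**
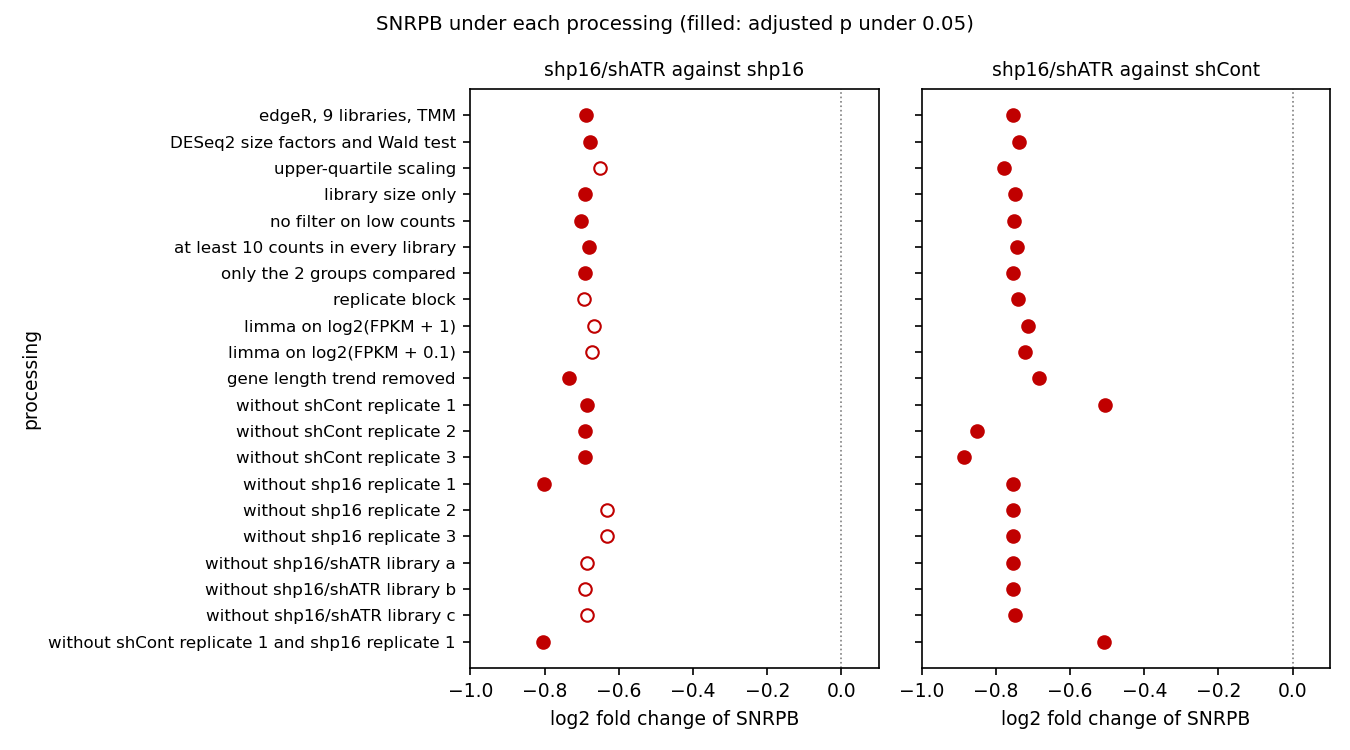
Log2 fold change of SNRPB (horizontal axis) under each processing (vertical axis), for shp16/shATR against shp16 (left) and against shCont (right); filled circles have an adjusted p under 0.05. All values lie below 0; against shp16, 10 of the 19 alternatives are filled, not counting the bottom one, which was added later, and against shCont all 19 are.

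SNRPD3 encodes SmD3, the partner of SmB/B′. The gene (ENSG00000100028, chr22:24951471-25005947, plus strand) gave 183, 123 and 112 CPM in shCont replicates 1 to 3 and 122, 130 and 135 CPM in shp16 replicates 1 to 3. In shp16/shATR libraries a, b and c it gave 135, 137 and 138 CPM. The shp16/shATR libraries lay narrowly above those of shp16, and shCont surrounded both. The log2 fold change was 0.08 against shp16 (SE 0.159, edgeR adjusted p = 0.84) and −0.03 against shCont (SE 0.159, edgeR adjusted p = 0.915). Without shCont replicate 1 the latter was 0.21 and passed (edgeR adjusted p = 0.0467).

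The ratio of these partners separated shp16/shATR from the other groups. The FPKM ratio of SNRPB over SNRPD3 was 1.66, 1.60 and 1.66 in shCont replicates 1 to 3 and 1.501, 1.81 and 1.75 in shp16 replicates 1 to 3. It was 1.01, 0.994 and 0.981 in shp16/shATR libraries a, b and c. The group means were 1.64 ± 0.0333, 1.69 ± 0.165 and 0.994 ± 0.0136 (SD, n = 3), and the shp16/shATR libraries were below all others, shCont replicate 1 included. Both shp16/shATR comparisons gave p = 0.1, the smallest possible in the two-sided exact permutation test, and 0.2 after adjustment over the 12 such tests made on ratios of members. These ratios and tests were added after the values were seen.

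SmD1 and SmD2 form the second unit. SNRPD2 (ENSG00000125743, chr19:46190712-46195827, minus strand) gave 275, 165 and 160 CPM in shCont replicates 1 to 3, 171 to 185 CPM in shp16 and 176 to 190 CPM in shp16/shATR. SNRPD1 (ENSG00000167088, chr18:19192228-19210344, plus strand) gave 55.6, 34.1 and 41.3 CPM in shCont, 37.8 to 45.4 CPM in shp16 and 36.3 to 40.5 CPM in shp16/shATR. For both genes the 3 groups overlapped. Against shp16, shp16/shATR gave log2 fold changes of 0.04 for SNRPD2 (SE 0.177, edgeR adjusted p = 0.939) and −0.13 for SNRPD1 (SE 0.16, edgeR adjusted p = 0.726).

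SmE, SmF and SmG form the third unit. SNRPF (ENSG00000139343, chr12:96252706-96297606, plus strand) gave 49.6, 34.2 and 34.6 CPM in shCont replicates 1 to 3 and 43.6, 44.4 and 44.0 CPM in shp16 replicates 1 to 3. In shp16/shATR libraries a, b and c it gave 37.4, 36.7 and 32.9 CPM. The shp16 libraries were all above those of shp16/shATR and above shCont replicates 2 and 3, but below shCont replicate 1.

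The log2 fold change of SNRPF was 0.16 in shp16 against shCont (SE 0.143, edgeR adjusted p = 0.509) and −0.30 in shp16/shATR against shp16 (SE 0.143, edgeR adjusted p = 0.27), so neither passed. Without shCont replicate 1 both passed, at 0.35 (edgeR adjusted p = 0.00623) and −0.30 (edgeR adjusted p = 0.00855). The second of these leaves the libraries compared as they were, and the biological coefficient of variation shared by all genes fell from 0.149 to 0.0903 without that library.

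SNRPE (ENSG00000182004, chr1:203830731-203839678, plus strand) gave 63.4, 41.9 and 44.5 CPM in shCont replicates 1 to 3, 40.3 to 46.7 CPM in shp16 and 40.8 to 50.4 CPM in shp16/shATR. SNRPG (ENSG00000143977, chr2:70508494-70520903, minus strand) gave 87.7, 65.5 and 58.5 CPM in shCont, 63.8 to 67.9 CPM in shp16 and 61.6 to 66.7 CPM in shp16/shATR. Their groups overlapped in every comparison, and their log2 fold changes in shp16/shATR against shp16 were 0.10 for SNRPE (SE 0.158, edgeR adjusted p = 0.793) and −0.05 for SNRPG (SE 0.139, edgeR adjusted p = 0.877). The FPKM ratio of SNRPE over SNRPF averaged 1.81 ± 0.0457 for shCont, 1.43 ± 0.0926 for shp16 and 1.90 ± 0.300 for shp16/shATR (SD, n = 3). That of SNRPG over SNRPF was 2.28 ± 0.146, 1.90 ± 0.0528 and 2.27 ± 0.264. In both ratios the shp16 libraries were below all others, with p = 0.1 in the exact permutation test, the smallest possible, against either group and 0.2 after the same adjustment.

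**Figure D3:**
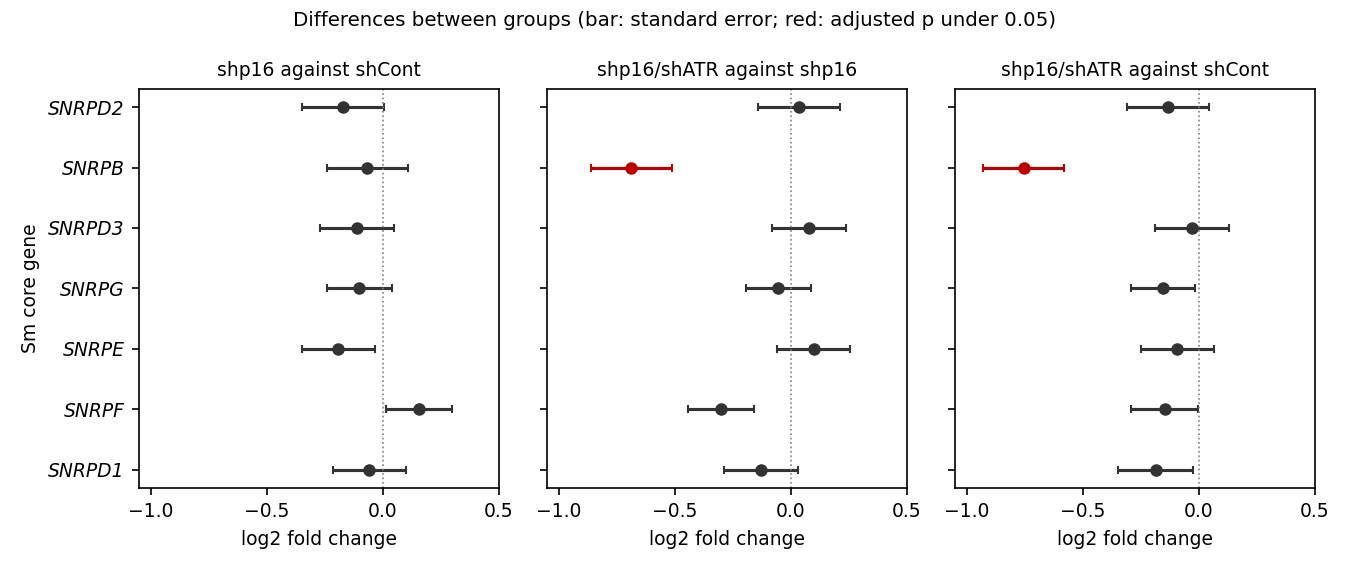
Log2 fold change (horizontal axis) of each Sm core gene in the 3 comparisons, with bars of 1 standard error; red marks an adjusted p under 0.05. SNRPB is red at −0.69 against shp16 and −0.75 against shCont, and every other member lies between −0.30 and 0.16.

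Counted over the ring, none of the 7 genes was called in shp16 against shCont by edgeR, 0 had an unadjusted p under 0.05 and 0 were called by DESeq2, where edgeR called 14.8% of all genes tested. In shp16/shATR against shp16, 1 of 7 was called (SNRPB, lower) beside 6.22% of all genes, and in shp16/shATR against shCont 1 of 7 (SNRPB, lower) beside 23.6%. Groups did not overlap in CPM for 0 of 7 members in shp16 against shCont, where 33.6% of all genes did not. In shp16/shATR against shp16 they did not overlap for 3 of 7 (SNRPB and SNRPF lower, SNRPD3 higher) beside 37.7% of all genes, and against shCont for 1 of 7 (SNRPB) beside 41.5%. These shares of the ring were near or below those of all genes except for the single call in shp16/shATR against shp16. The 3 comparisons share libraries and are not independent of each other.

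The median log2 fold change of the 7 genes was −0.10 in shp16 against shCont, −0.05 in shp16/shATR against shp16 and −0.15 in shp16/shATR against shCont. Over all genes tested the medians were −0.02, 0.00 and −0.02. Without shCont replicate 1 the members' medians were 0.13, −0.05 and 0.05, so the sign in both comparisons with shCont rested on that library. The number called was then 1 (SNRPF, higher), 2 (SNRPB and SNRPF, lower) and 2 (SNRPB lower, SNRPD3 higher) of 7, beside 25.9%, 19.9% and 33.3% of all genes.

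The library shp16 replicate 1 also differed from its group, with SNRPB at 151 CPM against 194 CPM in both other shp16 libraries. With shCont replicate 1 and shp16 replicate 1 both left out, a choice made after the data were seen, SNRPB was higher in shp16 than in shCont (log2 fold change 0.30, edgeR adjusted p = 0.000433), as were SNRPD3 (0.17, edgeR adjusted p = 0.037) and SNRPF (0.36, edgeR adjusted p = 0.00192). In that fit 32.7% of all genes were called, and SNRPB remained lower in shp16/shATR than in shp16 (−0.81, edgeR adjusted p = 1.74e-09). For SNRPB, SNRPD3 and SNRPF the libraries left out held the highest shCont and the lowest shp16 value (249 and 151 CPM for SNRPB). Only replicates 2 and 3 of shCont and of shp16 remained. Leaving these libraries out favours higher values in shp16, so the p-values of this fit do not test those differences.

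The 7 genes summed to 597 ± 143 FPKM for shCont, 554 ± 46.0 for shp16 and 511 ± 6.63 for shp16/shATR (SD, n = 3). The exact permutation test gave p = 0.9 for shp16 against shCont and 0.4 for each shp16/shATR comparison. The shCont mean without replicate 1 was 515. With SNRPB set aside, the remaining 6 genes summed to 468 ± 112, 430 ± 23.2 and 434 ± 7.26 FPKM, and both shp16/shATR comparisons gave an exact permutation p of 1.

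As a share of that sum, which is independent of a library's overall scale, SNRPB took 21.6%, 21.9% and 21.3% in shCont replicates 1 to 3 and 19.5%, 23.6% and 23.7% in shp16 replicates 1 to 3. In shp16/shATR libraries a, b and c it took 15.4%, 15.2% and 14.6%. The shp16/shATR libraries were below all others, and shCont replicate 1 did not stand apart on this measure. The group means were 21.6% ± 0.300, 22.3% ± 2.39 and 15.1% ± 0.410 (SD, n = 3), with an exact permutation p of 0.1, the smallest possible, for each shp16/shATR comparison. This test was added after the values were seen. The highest share of SNRPB over the 9 libraries was 1.62 times its lowest, against 1.16 times (SNRPG) to 1.32 times (SNRPE) for the other members, whose shares are tied to that of SNRPB because all add to 100%.

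**Figure D4:**
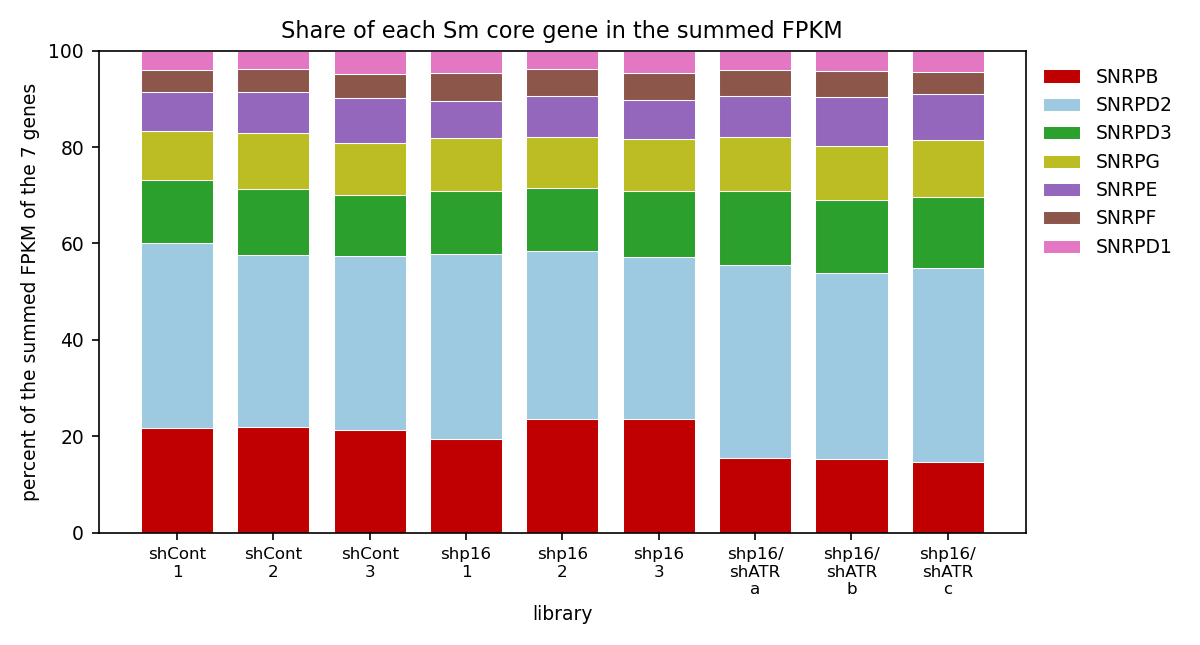
Percent of the summed FPKM of the 7 Sm core genes (vertical axis) taken by each gene in each of the 9 libraries; every bar adds to 100%. SNRPB, at the bottom, takes 19.5% to 23.7% in the shCont and shp16 libraries and 14.6% to 15.4% in the shp16/shATR libraries.

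Reads could be shared with near-identical genes. SNRPN had 5 to 27 counts in a library, where SNRPB had 1943 or more. The table lists 30 annotated Sm pseudogenes, of which 16 had no counts and 27 had fewer than 100 counts over the 9 libraries together. The only one of SNRPB, SNRPBP1, had none. SNRPG had the most, with 1075 counts in SNRPGP10 (8.78% of those of SNRPG), 139 in SNRPGP4 and 107 in SNRPGP2. How reads matching several genes were counted is not given in the sources used here. These counts therefore do not bound the reads that a member lost or gained. On the opposite strand, GUCD1 overlaps SNRPD3 by 433 bases and QPCTL overlaps SNRPD2 by 87, and whether strand was used in counting is not given in the sources used here. GUCD1 fell in shp16/shATR against shp16 (log2 fold change −0.86, edgeR adjusted p = 0.00103), and its part in the values of SNRPD3 was not tested. QPCTL was lower in shp16 than in shCont (−0.56, edgeR adjusted p = 0.0467, and −0.31 without shCont replicate 1, 0.023), a call that passed in 8 of 19 alternatives, and its part in the values of SNRPD2 was not tested. The genes that overlap SNRPB, SNRPD1 and SNRPF had at most 10 counts in a library, 3 further genes overlapping SNRPD3 had at most 45, and no listed gene overlaps SNRPE or SNRPG.

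The other genes of small nuclear particle assembly and of the spliceosome were taken in 5 lists, with 68 genes tested. In shp16 against shCont 3 of the 68 were called, all lower (4.41%). These were PHAX, the export adaptor of small nuclear RNAs (log2 fold change −0.39, edgeR adjusted p = 0.0331), LSM5, a subunit of the related LSm rings (−0.44, 0.0311), and SF3B14, now SF3B6, of the U2 particle (−0.42, 0.0364). In shp16/shATR against shp16 1 of the 68 was called (1.47%), SNRNP40, of the U5 particle (−0.42, 0.0479). Each of these shares was below that of all genes in the same comparison. Without shCont replicate 1 this held only in shp16/shATR against shp16, and narrowly. Then 18 of the 68 were called in shp16 against shCont, 12 higher and 6 lower (26.5%, beside 25.9% of all genes), and 13 in shp16/shATR against shp16, 2 higher and 11 lower (19.1%, beside 19.9%). DESeq2 called 6, of which 2 were higher and 4 lower (8.82%, beside 18.6% of all genes), and 3, all lower (4.41%, beside 9.56%).

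In shp16/shATR against shCont 10 of the 68 were called, 5 higher and 5 lower (14.7%, beside 23.6% of all genes). Without shCont replicate 1 it was 20, 11 higher and 9 lower (29.4%, beside 33.3% of all genes). DESeq2 called 16, of which 8 were higher and 8 lower (23.5%, beside 26.5% of all genes). The edgeR counts per list that follow stand beside the same 23.6% of all genes, and none is read as a change of its list. Of the 20 assembly factors 4 rose and 2 fell. GEMIN8, a subunit of the SMN complex, rose from 5.39 to 7.55 CPM in shCont to 10.4 to 11.6 CPM (log2 fold change 0.75, edgeR adjusted p = 0.00537). GEMIN6, another subunit with an Sm-like fold, fell from 19.7 to 29.7 CPM to 14.6 to 16.1 CPM (−0.65, 0.0107). Of the 9 LSm genes tested 1 fell, LSM5 (−0.62, 0.00373), and of the 15 genes of the U1 and U2 particles 1 fell, SF3B4 (−0.44, 0.0324). Of the 16 genes of U5 and the tri-particle, the helicase gene SNRNP200 rose (0.48, 0.0204) and CD2BP2 fell (−0.41, 0.0479). None of the 8 genes of the minor spliceosome was called by edgeR in any comparison. At an unadjusted p under 0.05, 1, 2 and 2 were lower in the 3 comparisons in the order above. The share of all genes at that unadjusted threshold is not given here. DESeq2 called 1, SNRNP25, lower in shp16/shATR against shCont. Over the 68 genes the medians were 0.01, −0.07 and −0.08 in that order, and 0.12, −0.06 and 0.02 without shCont replicate 1.

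Of the 10 calls named from these lists over the 3 comparisons, those of GEMIN8, GEMIN6 and LSM5 in shp16/shATR against shCont passed in 19 of 19 alternatives. The other 7 passed in 9 to 16 of them, with LSM5 in shp16 against shCont passing in 13. All 10 passed without shCont replicate 1, with log2 fold changes of the same sign. Those of GEMIN6 (−0.46), CD2BP2 (−0.23) and SF3B4 (−0.28) in shp16/shATR against shCont moved most.

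Over the 9 libraries, the genes whose log2 CPM profile, centred on its own mean, lay nearest to the mean profile of the 7 members were STK11, TSC22D4, ZBTB17, PRMT1 and GTF3C5, among 10730 genes with a mean of at least 5 CPM. Their root mean square differences from that profile were 0.0435 to 0.0518 in log2 CPM. Among the members themselves the difference was 0.0612 for SNRPG to 0.122 for SNRPE, and 0.266 for SNRPB. These values cannot be ranked against those of the 5 genes. The 5 were picked as the smallest of 10730, and each member is part of the mean profile. The mean profile stood highest in shCont replicate 1, at 0.48 above its own mean, and these 5 genes stood 0.43 to 0.49 above theirs in the same library. The profiles were not compared without it.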

How the data were processed

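RNA from the 9 libraries was prepared with a NEBNext Ultra 2 kit. The submitters' processing notes name STAR 2.6.1, DESeq2 and GRCh38, whereas the deposited gene coordinates are those of GRCh37; the counting program and its strand setting are not given in the sources used here. The authors deposited raw counts per gene and FPKM, and each FPKM column equals 1 count column scaled by gene length and total count (largest relative difference 4.22e-07). The 3 shp16/shATR count columns share 1 name and are called a, b and c.

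Counts were normalised by TMM, filtered with filterByExpr and tested with the quasi-likelihood test of edgeR 4.0.16 (R 4.3.3), all 9 libraries in 1 fit, at a Benjamini-Hochberg adjusted p of 0.05 over 15776 genes; the SE is the log2 fold change over the root of its F. CPM values are TMM-normalised. On counts simulated for shp16/shATR against shp16 over 15776 genes, 180 of 200 changes of log2 1 were recovered, with 12 other calls. No simulated library stood apart as shCont replicate 1 did, and the changes were larger than that of SNRPB (−0.69). Recovery of smaller changes was not tested. Alternatives were DESeq2 1.42.0, limma 3.58.1 on log2 FPKM with 1 or 0.1 added, 2 other scalings, 2 other filters, only the 2 groups compared, a replicate block, removal of a gene length trend (spline of 5 degrees of freedom) and each library left out. Members and lists were chosen with earlier results of these data known. Genes named are the 7 members, CDKN2A, ATR, SNRPN, pseudogenes and overlapping genes, the 2 called genes of largest change per list and comparison, and the 5 nearest profiles. The melanocyte genes and SNRNP25 were added after the data were seen. Sequences were read from RefSeq and GENCODE tables; no protein sequence was used here.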

Additional observations from a re-analysis of the deposited data

How the results depend on the processing

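The genes called numbered 2339 in shp16 against shCont, 981 in shp16/shATR against shp16 and 3724 in shp16/shATR against shCont. Leaving out 1 library at a time gave 1344 to 4192, 292 to 3223 and 2354 to 5395, and without shCont replicate 1 and shp16 replicate 1 together 5264, 4304 and 7130. Fitting only the 2 groups compared gave 1186 in the first comparison and 2878 in the second, and DESeq2 gave 1508 in the second.

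The Sm genes called with 1 library left out were 0 to 1, 0 to 2 and 1 to 2 of 7 in the same order, and 3, 2 and 3 with both libraries left out. In shp16/shATR against shp16, 0 were called under upper-quartile scaling and under limma with either constant, where SNRPB missed the threshold at log2 fold changes of −0.65, −0.67 and −0.67 (adjusted p 0.0592, 0.0559 and 0.0581), and 2 when only the 2 groups were compared. Their median log2 fold change was −0.22 to 0.13, −0.09 to −0.03 and −0.24 to 0.05 with 1 library left out, and 0.14 in shp16 against shCont with both left out. The ratio of summed FPKM was 0.857 to 1.08, 0.879 to 0.944 and 0.789 to 0.991 with 1 library left out.

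The values that turned sign were of differences that had not passed the threshold. At the other end of the values with 1 library left out, in shp16 against shCont, were SNRPB −0.196, SNRPD1 −0.206, SNRPD2 −0.307, SNRPD3 −0.246, SNRPE −0.302 and SNRPG −0.218, and in shp16/shATR against shCont SNRPD1 −0.336, SNRPD2 −0.271, SNRPD3 −0.168, SNRPE −0.205, SNRPF −0.242 and SNRPG −0.274. In shp16 against shCont without shCont replicate 1 the turned values were SNRPB 0.181, SNRPD1 0.149, SNRPD2 0.122, SNRPD3 0.129, SNRPE 0.012 and SNRPG 0.079, and with shp16 replicate 1 left out as well 0.297, 0.139, 0.099, 0.172, 0.072 and 0.106. SNRPB was 0.047 without shp16 replicate 1 and SNRPD1 0.015 without shp16 replicate 2. With the gene length trend removed, SNRPB was 0.052, SNRPD1 0.062, SNRPD3 0.012 and SNRPG 0.008, and in shp16/shATR against shp16 SNRPD2 was −0.032. In shp16/shATR against shCont without shCont replicate 1, SNRPD1 was 0.023, SNRPD2 0.161, SNRPD3 0.21, SNRPE 0.114, SNRPF 0.048 and SNRPG 0.027, and with both libraries left out 0.019, 0.157, 0.207, 0.111, 0.044 and 0.024. SNRPD3 was 0.042 there with the length trend removed and 0.001 under limma with either constant. The cause of these turns was not tested.

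Correlations of same-numbered deviations from the group means were −0.527 to 0.455. They do not settle whether replicate numbers pair the libraries, since shCont replicate 1 and shp16 replicate 1 stood apart from their groups. For shp16/shATR the numbers were taken from the matching FPKM columns. With the replicate number as a block, 612 genes and 0 Sm genes were called in shp16/shATR against shp16, and SNRPB was −0.694 (adjusted p 0.0741). The members had 630 or more counts in every library. The coefficient of variation between libraries, shared by all genes, was 0.149, and 0.0903 without shCont replicate 1. How far depth or this spread limited the tests was not tested. With 3 libraries per group, the exact permutation tests cannot go below p = 0.1.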
